A study of Homo sapiens with 8 samples.

Results

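ATF4 and 9 genes that act with it or under it when cells run short of amino acids were read out in Huh7 cells with too little or too much UPF1. The genes ATF4, DDIT3, TRIB3, ASNS, CHAC1, SESN2, PSAT1, SLC7A11, SLC3A2 and DDIT4 were taken by symbol, and all 10 were found among the 17076 genes of the deposited tables. Huh7 is a human hepatocellular carcinoma line. The study sequenced polyadenylated RNA of 4 groups with 2 libraries each: cells given a scrambled siRNA (siControl), cells given an siRNA against UPF1 (siUPF1), cells given the control MYC vector (MYC) and cells given a vector for MYC-tagged UPF1 (MYC-UPF1). MYC is here an epitope tag and not the MYC oncoprotein. All groups were one cell line and differed in the transfected siRNA or plasmid, so each treated group was set against its own control. Expression was given as FPKM, fragments per kilobase of exon scaled to the mapped fragments of the library, which allows levels to be compared between genes per length.

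UPF1 itself moved as labelled. Its level was 44.5 and 47.4 FPKM in siControl and 20.7 and 21.9 FPKM in siUPF1, lower by a log2 fold change of -1.07 with an adjusted p of 0.0308 in limma, the linear model used throughout. It was 45.1 and 57.4 FPKM in MYC and 2835 and 2484 FPKM in MYC-UPF1, with a log2 fold change of 5.68 and an adjusted p of 8.91e-09. All 9 hepatocyte markers looked up were present, at 38.5 to 12505 FPKM, and of 7 markers of other cell types only the endothelial gene PECAM1 was listed, at 0.535 to 0.796 FPKM. The libraries differed in how their values ran with the GC content of transcripts: over 12735 genes, the Spearman correlation of each library's deviation from its experiment's mean with GC was -0.479 and -0.491 in siControl, -0.0605 and 0.655 in siUPF1, -0.549 and 0.707 in MYC, and 0.453 and -0.672 in MYC-UPF1. The second siUPF1 library therefore stood apart from its partner. In MYC and in MYC-UPF1 the 2 libraries had opposite signs, so these values do not mark either of them as the odd one. The calls of the members and of the named pathway genes are given below with and without the libraries whose values rose with GC. These are the second siUPF1, the second MYC and the first MYC-UPF1 library.

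ATF4 is a leucine zipper transcription factor of the integrated stress response. When amino acids are scarce or the endoplasmic reticulum is stressed, kinases phosphorylate eIF2 on its alpha subunit, general translation slows, and ribosomes that pass the upstream reading frames of the ATF4 mRNA reach the ATF4 frame more often. ATF4 then switches on genes for amino acid synthesis and uptake, for glutathione turnover and for restraint of the growth kinase complex mTORC1. UPF1 is the RNA helicase at the centre of nonsense-mediated mRNA decay, and the ATF4 mRNA is known as a substrate of that pathway, which is why these genes are of interest in cells with altered UPF1.

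ATF4 binds its targets as a dimer with C/EBP family proteins at a C/EBP-ATF response element, whose core is TGATGNAA. This core was searched on both strands in the RefSeq promoter windows, which run from 250 bases before to 50 bases after each start site. It was present for 3 of the 9 members with a window, for 10 of 47 genes of the wider ATF4 pathway lists described below (21.28%) and for 326 of all 11604 genes of the tables with a window (2.809%). The 3 member matches, in the enzymes ASNS and CHAC1 and the transporter subunit SLC3A2, are shown because they hold the letters that ATF4 is known to read, and because the values of these 3 genes did not go one way. The capitals mark the core, which lies in reverse complement in CHAC1 and SLC3A2.
ASNS, chr7:97501763-97501792, minus strand, GRCh37: ggcaTGATGAAActtcccgcacgcgttaca
CHAC1, chr15:41245456-41245485, plus strand, GRCh37: gccgTTGCATCActcctgccaggtttgcca
SLC3A2, chr11:62649204-62649220, plus strand, GRCh37: ctccTTACATCAgctcc
The ASNS core began 68 bases before the start of the gene's canonical transcript and the CHAC1 core 209 bases before its own. The SLC3A2 core lay 38 bases after a RefSeq start that is internal to the gene, 840 bases downstream of the canonical start and outside the exons of that transcript. Exons of 3 of 17 annotated ASNS transcripts, 1 of 3 CHAC1 transcripts and 7 of 41 SLC3A2 transcripts overlapped the printed bases at least in part. A match in a window is a description of its letters and not of binding.

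On GRCh37 the members lie on 10 different chromosomes, and all are protein-coding genes in GENCODE. ATF4 spans chr22:39915700-39918688 on the plus strand, DDIT3 chr12:57910371-57915520 on the minus strand and TRIB3 chr20:343479-378203 on the plus strand. The enzyme genes are ASNS at chr7:97480989-97501854 on the minus strand, CHAC1 at chr15:41245160-41248710 on the plus strand and PSAT1 at chr9:80912041-80945009 on the plus strand. The transporter genes are SLC3A2 at chr11:62623476-62656352 on the plus strand and SLC7A11 at chr4:139085251-139163503 on the minus strand. SESN2 spans chr1:28586029-28609002 and DDIT4 chr10:74033678-74035794, both on the plus strand. FPKM counts exon fragments of the whole gene, so no value below belongs to a single exon or isoform.

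**Figure D1:**
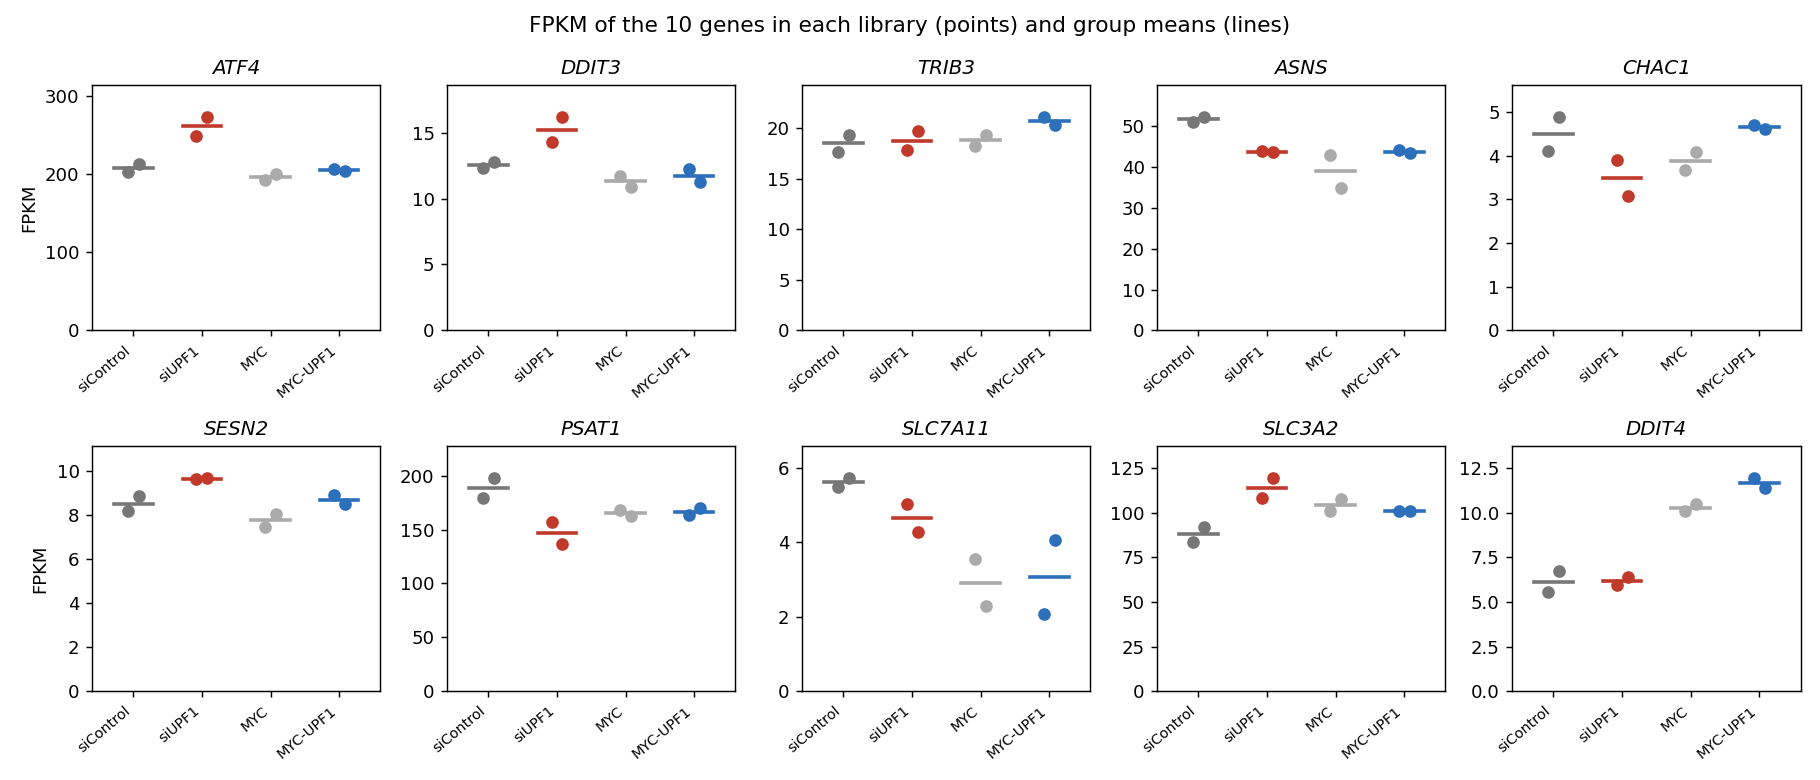
FPKM (vertical axes, each from 0) of the 10 genes in the 8 libraries, by group on the horizontal axes; points are libraries and lines are group means. Both siUPF1 libraries lie above both siControl libraries for ATF4, DDIT3, SESN2 and SLC3A2 and below them for ASNS, CHAC1, PSAT1 and SLC7A11.

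The 10 genes stood at very different levels, from near the top of the tables to near their middle. By mean FPKM over the 8 libraries, ATF4 ranked 224 among the 17076 genes, PSAT1 308 and SLC3A2 537, while ASNS ranked 1346, TRIB3 3139 and DDIT3 4450. SESN2, DDIT4, CHAC1 and SLC7A11 ranked 5778, 5818, 8424 and 8474. The highest of the 8 libraries was 1.20 times the lowest for TRIB3, the smallest ratio of the 10, and 2.77 times for SLC7A11, the largest.

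After UPF1 depletion, which asks what happens when the decay helicase is scarce, the members went both ways. ATF4, DDIT3 and SLC3A2 rose and ASNS and PSAT1 fell when log2(FPKM + 1) was tested in limma at an unadjusted p of 0.05, the threshold of the study. The 3 rises stand beside 16% of all 13535 tested genes that rose, and the 2 falls beside 5.51% that fell. No member passed an adjusted p of 0.05 (lowest 0.131, for SLC3A2), a threshold passed by 0.0369% of the tested genes, or 5 in all, UPF1 included. Both siUPF1 libraries lay above both siControl libraries for 4 members, against 37.5% of all tested genes, and below them for 4 members, against 18.5%. The median log2 fold change of the 10 members was 0.02 and that of all tested genes 0.06. With 2 libraries per group an exact permutation test of a single gene cannot give a two-sided p below 0.333, so none was run. The 5 calls became 2 without the first siControl library, 1 without the second, 7 without the first siUPF1 library and 4 without the second, while the share of all tested genes called went from 21.5% to 10.7%, 12.6%, 43.7% and 21.7%. In bulk RNA a changed level per cell and a changed share of cells cannot be told apart.

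ATF4 was expressed at 203 and 213 FPKM in siControl, 249 and 273 FPKM in siUPF1, 193 and 201 FPKM in MYC, and 206 and 204 FPKM in MYC-UPF1. The siUPF1 libraries were the 2 highest of the 8 and did not overlap with any other group. Its mean was 25.5% higher in siUPF1 than in siControl, with a log2 fold change of 0.32 ± 0.10 (SE, limma adjusted p = 0.144). DDIT3, which encodes the transcription factor CHOP, a partner of ATF4 that favours cell death under long stress, was at 12.3 and 12.7 FPKM in siControl, 14.3 and 16.2 FPKM in siUPF1, 11.7 and 10.9 FPKM in MYC, and 12.2 and 11.2 FPKM in MYC-UPF1. Here too the siUPF1 libraries were the highest, and the MYC and MYC-UPF1 libraries were interleaved. DDIT3 rose by 21.5% in the mean (log2 fold change 0.26 ± 0.10, adjusted p = 0.207). TRIB3, a pseudokinase that is induced by ATF4 and DDIT3 and binds ATF4 to hold it back, was at 17.6 and 19.4 FPKM in siControl, 17.8 and 19.7 FPKM in siUPF1, 18.3 and 19.3 FPKM in MYC, and 21.1 and 20.3 FPKM in MYC-UPF1. Its siControl and siUPF1 libraries overlapped, and only the MYC-UPF1 libraries lay above all others. The depletion log2 fold change of TRIB3 was 0.02 ± 0.10 (adjusted p = 0.929), and it turned negative under 5 of 14 alternative settings. These 14 settings include a block with crossed replicate numbers, which was chosen after seeing the data.

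The fold changes of ATF4 and DDIT3 moved little without either control library, although their calls did not hold. With the first siControl library left out neither passed the unadjusted threshold, with log2 fold changes of 0.29 for ATF4 and 0.24 for DDIT3, and the same held with the second left out (0.36 and 0.28), where a lone control carries no spread of its own. Leaving out the second siUPF1 library, the one with the strong GC relation, kept the call for ATF4 (0.26) and ended it for DDIT3 (0.17). Scaling the libraries by quantiles or medians also ended the call for DDIT3 (0.21 and 0.22), while ATF4 was called under 12 of 14 settings, with log2 fold changes from 0.23 to 0.39.

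Of the 3 enzymes, PSAT1 and ASNS fell after depletion. PSAT1, the aminotransferase of serine synthesis, was at 179 and 198 FPKM in siControl, 157 and 136 FPKM in siUPF1, 169 and 162 FPKM in MYC, and 163 and 170 FPKM in MYC-UPF1. The siControl libraries were the highest of the 8, the siUPF1 libraries the lowest, and the plasmid groups lay between them and overlapped. PSAT1 fell by 22.2% in the mean (log2 fold change -0.36 ± 0.11, adjusted p = 0.149). ASNS, which makes asparagine from aspartate and glutamine and is a classical target of amino acid deprivation, was at 50.9 and 52.15 FPKM in siControl, 43.8 and 43.6 FPKM in siUPF1, 42.9 and 34.8 FPKM in MYC, and 43.99 and 43.29 FPKM in MYC-UPF1. The siControl libraries were the highest, and 1 MYC library was well below the rest. ASNS fell by 15.3% in the mean (log2 fold change -0.23 ± 0.09, adjusted p = 0.199). CHAC1, which degrades glutathione, was at 4.11 and 4.89 FPKM in siControl, 3.90 and 3.09 FPKM in siUPF1, 3.67 and 4.09 FPKM in MYC, and 4.70 and 4.60 FPKM in MYC-UPF1. Both siUPF1 libraries lay below both siControl libraries, by a narrow margin for the first. Its log2 fold change was -0.29 ± 0.13 (adjusted p = 0.238) and just missed the unadjusted threshold.

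Among the enzymes PSAT1 kept its call under 13 of 14 settings and lost it without the second siControl library (log2 fold change -0.29). ASNS lost its call without the first siControl library (-0.25), without the second (-0.22) and with the replicate number as a block (-0.23). CHAC1 passed the threshold under 7 of 13 settings, among them the fits without the first siControl library (-0.40), without the first siUPF1 library (-0.42) and with the libraries scaled by medians (-0.33). CZ1P-ASNS, a readthrough entry that overlaps ASNS, was at 1.69 and 1.66 FPKM in siControl and 0.351 and 0.635 FPKM in siUPF1 (log2 fold change -0.85, limma adjusted p = 0.0584). It was at 0.612 and 2.32 FPKM in MYC and at 0.385 FPKM or lower in both MYC-UPF1 libraries. How the assembly split reads between ASNS and this entry is not known, so both are uncertain to that extent. The pseudogene ASNSP1, named after its values were seen, was at 3.66 to 3.86 FPKM in siControl and 4.10 to 4.58 FPKM in siUPF1 (log2 fold change 0.16, not past the threshold).

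Of the transport pair SLC3A2 rose and SLC7A11 did not pass the test. SLC3A2, the heavy chain that carries several amino acid exchangers to the plasma membrane, was at 83.7 and 92.1 FPKM in siControl, 108 and 120 FPKM in siUPF1, 101 and 108 FPKM in MYC, and 101 and 101 FPKM in MYC-UPF1. The siControl libraries were the lowest of the 8 and the siUPF1 libraries the highest, the first of them by a narrow margin over the second MYC library. SLC3A2 rose by 29.7% in the mean (log2 fold change 0.37 ± 0.10, adjusted p = 0.131), the largest change in size among the 10, and it was called under 13 of 14 settings, the exception being the fit without the first siControl library (0.30). SLC7A11, the light chain that joins SLC3A2 to form the cystine-glutamate exchanger, was at 5.49 and 5.74 FPKM in siControl, 5.04 and 4.28 FPKM in siUPF1, 3.55 and 2.28 FPKM in MYC, and 2.07 and 4.06 FPKM in MYC-UPF1. Both siUPF1 libraries lay below both siControl libraries, while the plasmid libraries were lower and varied within each group more than between the groups. Its log2 fold change after depletion was -0.23 ± 0.10 (adjusted p = 0.258). It did not pass the unadjusted threshold, which it passed at -0.32 without the first siUPF1 library and at -0.29 and -0.27 under quantile and median scaling.

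Of the 2 restrainers of mTORC1, SESN2, a leucine sensor, was at 8.17 and 8.84 FPKM in siControl, 9.60 and 9.68 FPKM in siUPF1, 7.45 and 8.05 FPKM in MYC, and 8.90 and 8.46 FPKM in MYC-UPF1. Both siUPF1 libraries were above the other 6, but the change of 13.3% in the mean did not pass the test (log2 fold change 0.16 ± 0.09, adjusted p = 0.338). DDIT4, also known as REDD1, was at 5.53 and 6.72 FPKM in siControl, 5.96 and 6.39 FPKM in siUPF1, 10.1 and 10.5 FPKM in MYC, and 12.0 and 11.4 FPKM in MYC-UPF1. The siUPF1 libraries lay inside the siControl range (log2 fold change 0.01 ± 0.11, adjusted p = 0.950), while all 4 plasmid libraries were far above all 4 siRNA libraries.

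**Figure D2:**
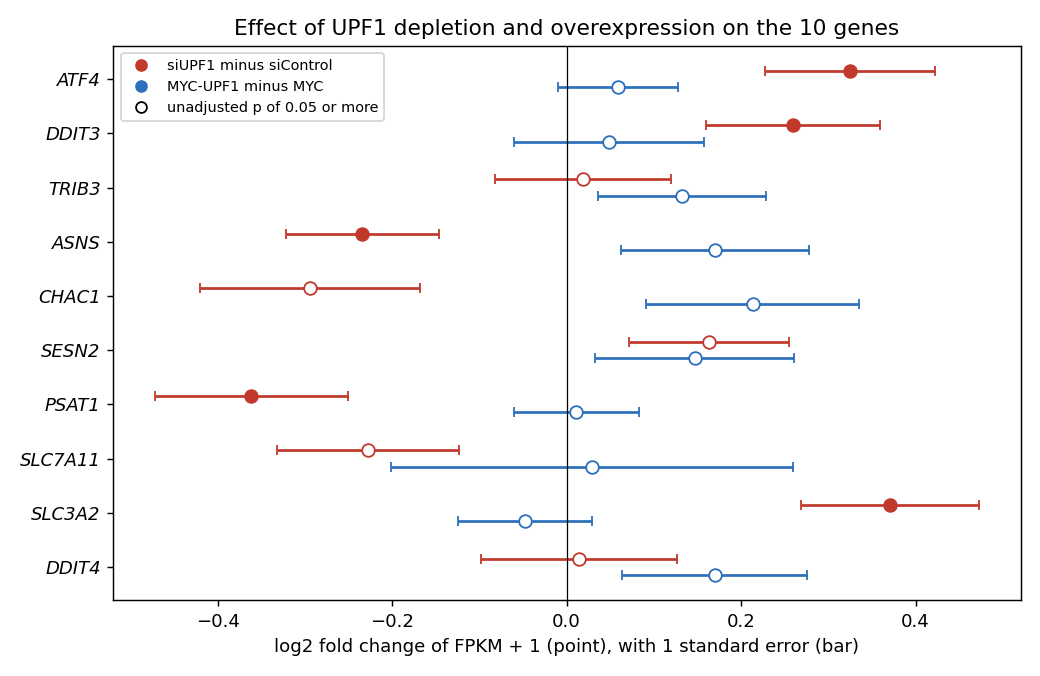
Log2 fold change of FPKM + 1 (horizontal axis) for each of the 10 genes (vertical axis) after UPF1 depletion (red) and overexpression (blue), with bars of 1 standard error; filled points passed an unadjusted limma p of 0.05. After depletion 3 genes are filled to the right of 0 and 2 to the left, and after overexpression 0 are filled.

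UPF1 overexpression, which asks whether an excess of the protein acts opposite to its loss, left all 10 members short of the test. Of the 10, 0 passed the unadjusted threshold of 0.05 in either direction, against 0.619% of 13251 tested genes that rose and 0.807% that fell, and every adjusted p was 1.00, with UPF1 the 1 gene (0.00755%) under 0.05. Of the 10 log2 fold changes 9 were positive, beside 5714 of the 13251 tested genes, and both MYC-UPF1 libraries lay above both MYC libraries for 6 members (ATF4, TRIB3, ASNS, CHAC1, SESN2 and DDIT4), against 8.88% of all tested genes, and below them for 0 members, against 11.8%. The member median was 0.10 and that of all tested genes -0.01. The largest values belonged to CHAC1 (0.21 ± 0.12), ASNS (0.17 ± 0.11) and DDIT4 (0.17 ± 0.11). The intervals of 2 standard errors were narrowest for ATF4, from -0.08 to 0.20, and widest for SLC7A11, from -0.43 to 0.49. Rises of the size ATF4 showed after depletion therefore lay outside its interval, whereas for SLC7A11 both a rise and a fall of that size lay inside.

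The choice of plasmid libraries decided 2 calls. With the first MYC library left out, so that the second stood alone, ASNS passed the threshold (log2 fold change 0.32, against 0.02 without the second). With the first MYC-UPF1 library left out SLC7A11 did (0.39), and without the second MYC-UPF1 library SLC7A11 was at -0.33. SLC7A11 was lowest in the second MYC and the first MYC-UPF1 libraries, at 2.28 and 2.07 FPKM, which are the plasmid libraries whose values rose with GC, and its transcript has the lowest GC content of the 10, 35.4%. The part of GC in these values was not tested beyond the fit described next.

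GC content ran with the depletion result. Among genes whose transcripts hold 35 to 45% GC, where ASNS (42.7%), PSAT1 (42.5%) and SLC7A11 (35.4%) lie, the median depletion log2 fold change was -0.05, with quartiles of -0.16 and 0.06 over 4755 genes. Among genes of 50 to 62%, where the other 7 members lie, it was 0.15, with quartiles of 0.03 and 0.26 over 4492 genes. ASNS, PSAT1 and SLC7A11 were each below the lower quartile of their window, although SLC7A11, at its low edge, lay inside the quartiles of the narrower bins of the plot. ATF4, DDIT3 and SLC3A2 were above the upper quartile of theirs, SESN2 was inside the quartiles, and TRIB3, CHAC1 and DDIT4 were below the lower one. After overexpression the same windows had medians of 0.02 and -0.05, ASNS lay above the upper quartile of the first (0.06), and ATF4, DDIT3, TRIB3, CHAC1, SESN2 and DDIT4 lay above that of the second (-0.0002).

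**Figure D3:**
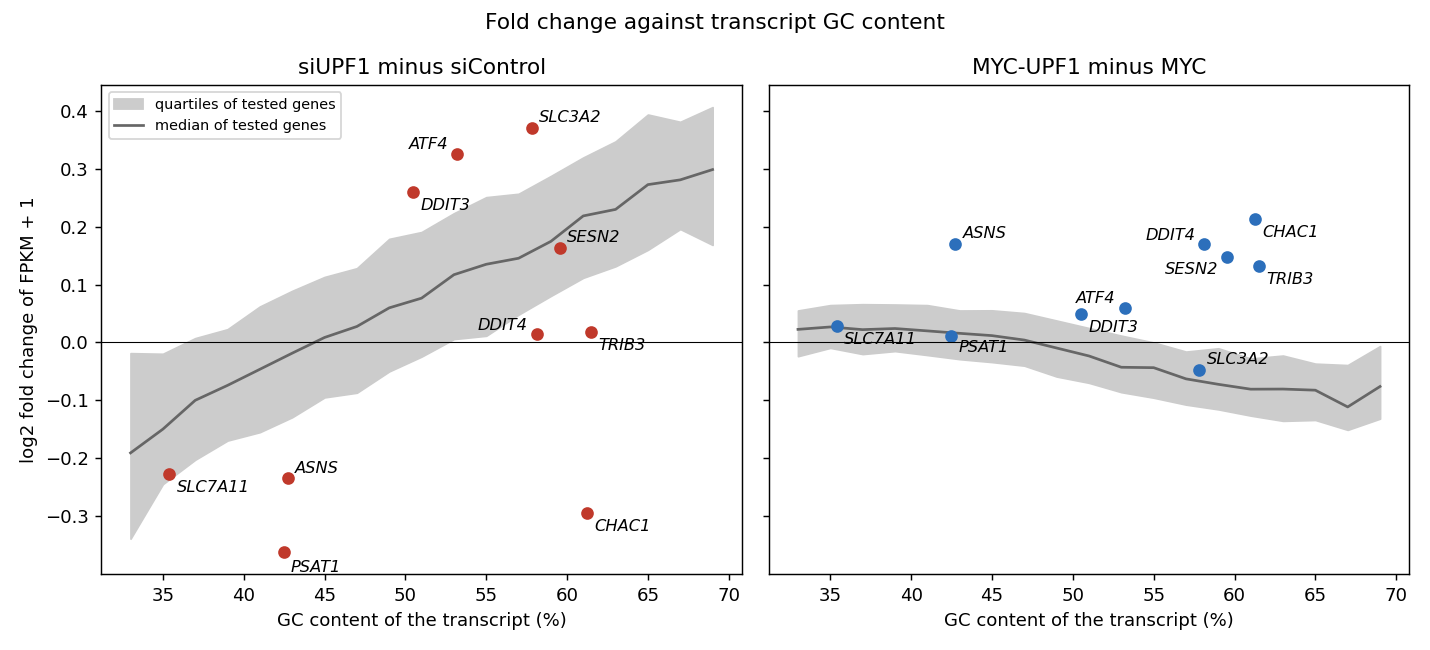
Log2 fold change of FPKM + 1 (vertical axis) against GC content of the transcript (horizontal axis, %) after depletion (left) and overexpression (right); the line and band are the median and quartiles of tested genes in GC bins, and points are the 10 genes. The median climbs with GC on the left and mostly sinks with it on the right, and the members lie on both sides of the band on the left.

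With the trend of each library with GC content and length removed, 7 members passed an unadjusted p of 0.05 after depletion, 3 higher and 4 lower, beside 11.4% of 12833 tested genes that were higher and 11.1% that were lower. ATF4, DDIT3 and SLC3A2 were still higher, with log2 fold changes of 0.23, 0.22 and 0.21. PSAT1 (-0.31) and ASNS (-0.19) were still lower and were joined by CHAC1 (-0.50) and TRIB3 (-0.20), the 2 members with the highest GC content. SESN2 turned to -0.04. In overexpression 4 members then passed, all higher, beside 1.95% of 12590 tested genes that were higher: CHAC1 (0.28), DDIT4 (0.22), TRIB3 (0.20) and SESN2 (0.22). No member had an adjusted limma p under 0.05 in either of these fits. The lowest was 0.0726 after depletion, for PSAT1, and 0.9998 after overexpression. The direction counts of all genes depended on scaling: 2162 of 2908 calls after depletion were rises as deposited, 1417 of 2825 after quantile normalization, 1602 of 2873 after median centring and 1462 of 2890 with the GC and length trend removed. Under quantile or median scaling TRIB3 and DDIT4 turned negative, and 2 members were called higher and 4 lower, beside shares of all genes of 10.5% and 10.4% under quantiles and 11.8% and 9.39% under medians.

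Whether a member answered depletion and overexpression differently was tested in a single limma fit of all 8 libraries, as the depletion effect minus the overexpression effect. At an unadjusted p of 0.05 this difference was positive for 2 members, beside 11.8% of 13412 tested genes, and negative for 3, beside 3.4%. At an adjusted p of 0.05, passed by 0.0224% of tested genes, there were 0 members (lowest adjusted p 0.206). SLC3A2 had the lowest p (difference 0.42 ± 0.12, adjusted p = 0.206) and was the only member that passed the unadjusted threshold under all 16 alternative settings. ATF4 differed by 0.27 ± 0.11 (adjusted p = 0.307) and passed under 5 of 16. Of the fits without 1 library ATF4 passed in 1, without the first siUPF1 library (0.33), and it was at 0.20 without the second. CHAC1 differed by -0.51 ± 0.17 (adjusted p = 0.231), ASNS by -0.40 ± 0.14 (adjusted p = 0.246) and PSAT1 by -0.37 ± 0.13 (adjusted p = 0.242), so that in these 3 enzymes the effect of depletion was the lower one. All 3 enzymes lost the call without the second siControl library (-0.41, -0.39 and -0.30). CHAC1 also lost it without the second siUPF1 library (-0.38) or the first MYC library (-0.45), ASNS without the second MYC library (-0.26) or the first MYC-UPF1 library (-0.39), and PSAT1 without the second MYC library (-0.35) or the second MYC-UPF1 library (-0.34). SLC7A11 passed without the first MYC-UPF1 library (-0.62) and was at 0.10 without the second. With the GC and length trend removed the difference passed for 7 members, 1 positive and 6 negative, beside 8.21% and 7.77% of 12735 tested genes.

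Upstream start codons, by which translation of ATF4 is controlled, were counted in all 10 transcripts. Upstream ATG triplets in the 5′ untranslated region, as annotated by GENCODE release 44 on GRCh37, were found for 6 of the 10: 3 each for ATF4 and DDIT3, 2 each for TRIB3 and SLC7A11, and 1 each for SESN2 and SLC3A2. ASNS, CHAC1, PSAT1 and DDIT4 had 0. Among 11450 coding transcripts of tested genes 39.9% had at least 1, and the median depletion log2 fold change was 0.06 with and 0.05 without them. All 3 members that rose had an upstream ATG, and both that fell had none. Of the members that did not pass the test, TRIB3 and SLC7A11 had 2 each, SESN2 had 1, and CHAC1 and DDIT4 had 0. This count was not tested. An exon junction more than 50 bases after the stop codon of the main reading frame, a textbook mark of a decay substrate, was found for 0 of the 10. The share among the coding transcripts was 0.681%. Junctions after the stop codons of upstream frames were not counted, so this count does not cover decay through such frames. SLC7A11 stood out by a 3′ untranslated region of 7859 bases, against a median of 1288.

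The wider pathway was read from lists of 57 other genes, of which 55 were in the tables. After depletion 54 were tested, of which 11 rose and 3 fell at the unadjusted threshold, beside 16% and 5.51% of all tested genes, with a median log2 fold change of 0.05. At an adjusted p of 0.05 there were 0. With the GC and length trend removed 9 rose and 7 fell, beside 11.4% and 11.1% of all tested genes. Under quantile scaling 10 rose and 6 fell, beside 10.5% and 10.4%. The 14 calls became 5 without the first siControl library, 6 without the second and 28 without the first siUPF1 library, fits in which 10.7%, 12.6% and 43.7% of all tested genes were called. Without the second siUPF1 library 11 of the 14 genes were still called, and MTHFD2 (-0.18), ATF5 (0.20) and NIBAN1 (0.20) were not. Of 7 transcription factors and feedback genes 4 rose and 0 fell, and their median was 0.30. JDP2, a leucine zipper repressor, was at 0.996 and 1.40 FPKM in siControl and 1.79 and 1.92 FPKM in siUPF1 (log2 fold change 0.38). NUPR1, a stress-induced chromatin protein, was at 1.305 and 1.302 against 1.77 and 2.17 FPKM (0.36). PPP1R15A, which brings a phosphatase to eIF2 and ends the response, was at 16.6 and 16.4 against 19.5 and 23.0 FPKM (0.34), and ATF5 at 11.4 and 12.5 against 13.9 and 15.7 FPKM (0.28). In each of the 4 both siUPF1 libraries lay above both siControl libraries.

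**Figure D4:**
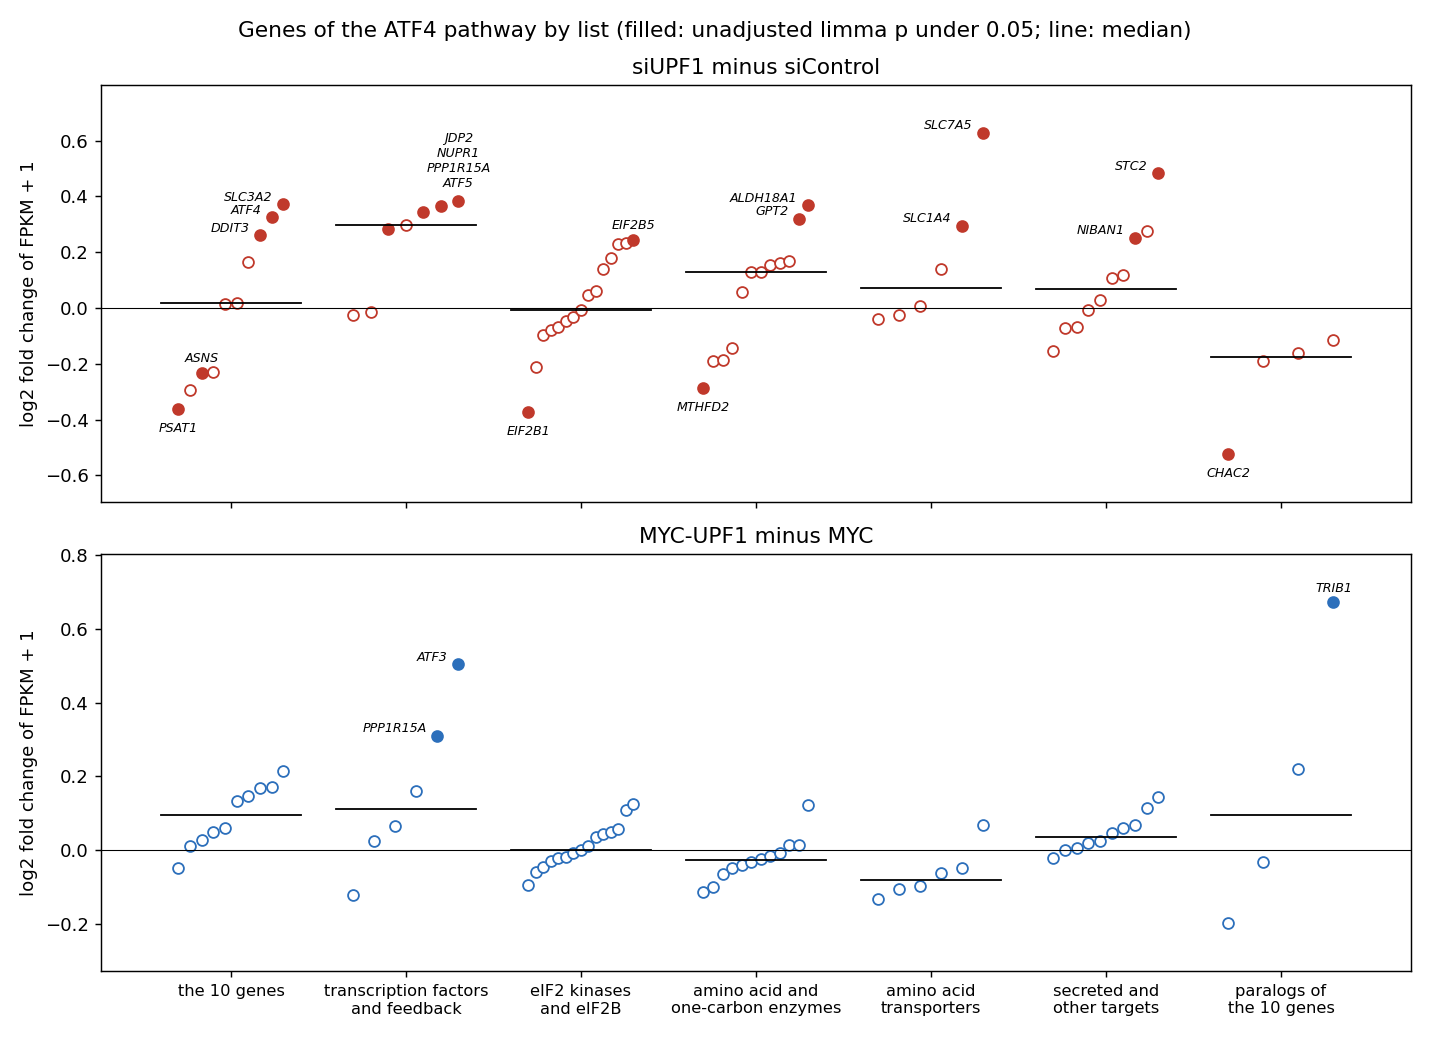
Log2 fold change of FPKM + 1 (vertical axes) of every tested gene of the ATF4 pathway, grouped by list (horizontal axis), after depletion (top, red) and overexpression (bottom, blue); filled points passed an unadjusted limma p of 0.05 and black lines are list medians. After depletion the transcription factor and feedback list has the highest median, 0.30, and after overexpression 3 genes of all the lists are filled.

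Of the other lists, 2 of 6 amino acid transporters rose and 0 fell after depletion. Each list count here stands beside the 16% of all tested genes that rose and the 5.51% that fell. No list was tested against these shares. SLC7A5, the large neutral amino acid transporter whose heavy chain is SLC3A2, was at 69.0 and 76.1 FPKM in siControl, 109 and 116 FPKM in siUPF1, 105 and 122 FPKM in MYC, and 107 and 98.7 FPKM in MYC-UPF1. As with SLC3A2, the siControl libraries were the lowest of the 8. SLC7A5 rose by 0.63 ± 0.10 on the log2 scale (adjusted p = 0.0645), the largest change of any gene of the lists, and SLC1A4, a carrier of small neutral amino acids, rose by 0.29. Of 12 amino acid and one-carbon enzymes 2 rose, ALDH18A1 of proline synthesis (0.37) and the alanine aminotransferase GPT2 (0.32), and 1 fell, the mitochondrial folate enzyme MTHFD2 (-0.29). Of 10 secreted and other targets 2 rose, the glycoprotein STC2 (0.48, adjusted p = 0.0969) and NIBAN1 (0.25). The next list held 15 genes, for eIF2, its kinases and its exchange factor eIF2B, with GCN1, IMPACT and PPP1R15B beside them. Of these 1 rose (EIF2B5, 0.24) and 1 fell (EIF2B1, -0.37), both of them subunits of eIF2B. Of 4 tested paralogs of the members 1 fell: CHAC2, the paralog of CHAC1, went from 7.99 and 9.61 FPKM to 6.55 and 5.12 FPKM (-0.52).

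After overexpression 53 genes of these lists were tested, and 3 rose and 0 fell, beside 0.619% and 0.807% of all tested genes, with a median log2 fold change of 0.00 and 0 genes at an adjusted p of 0.05. TRIB1, a paralog of TRIB3, was at 4.83 and 5.42 FPKM in MYC and 9.45 and 8.10 FPKM in MYC-UPF1 (log2 fold change 0.67 ± 0.13, adjusted p = 0.562). ATF3, a stress-induced partner of ATF4, was at 3.02 and 3.76 FPKM in MYC and 4.94 and 5.48 FPKM in MYC-UPF1 (0.50 ± 0.13). PPP1R15A, at 13.0 and 16.5 against 19.6 and 17.2 FPKM, rose by 0.31 and so passed the unadjusted threshold in both comparisons. Without the second MYC library all 3 were still called, and without the first MYC-UPF1 library TRIB1 (0.57) and ATF3 (0.57) were, while PPP1R15A (0.22) was not. In siUPF1, ATF3 was at 4.57 and 4.66 FPKM against 4.56 and 4.78 FPKM in siControl.

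Genes were also ranked by how closely they followed ATF4 over the 8 libraries, as the Pearson correlation of log2(FPKM + 1) after centring each experiment on its mean. Among 12096 genes with a mean of at least 1 FPKM the 5 most alike were FAM43B, P4HA2, GPC2, OTUD5 and PGF (each 0.99), of which P4HA2 was at 4.01 and 4.48 FPKM in siControl and 5.57 and 6.43 FPKM in siUPF1. Of the members, SLC3A2 (0.95) ranked 149 and DDIT3 (0.91) ranked 555, followed by SESN2 (0.80), TRIB3 (0.43) and DDIT4 (0.34). SLC7A11 (-0.44), CHAC1 (-0.58), ASNS (-0.59) and PSAT1 (-0.90) ran the other way, and PSAT1 was at rank 11897. ATF4 ran from 203 to 273 FPKM over the siRNA libraries but only from 193 to 206 FPKM over the plasmid libraries. The ranking therefore mostly repeats the depletion changes given above. The 8 points also carry the GC differences between the libraries, and the values are a description.

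The order of the groups differed from gene to gene. ATF4 and DDIT3 were ordered MYC, MYC-UPF1, siControl, siUPF1 from low to high, and the siControl and siUPF1 libraries did not overlap. ASNS and SLC7A11 were highest in siControl, then siUPF1, with both plasmid groups lower, although the siUPF1 and MYC-UPF1 libraries of ASNS overlapped. DDIT4 was lowest in siControl, then siUPF1, MYC and MYC-UPF1, and TRIB3 shared this order although only its MYC and MYC-UPF1 libraries were apart. Levels in the siRNA groups and in the plasmid groups differ by transfected material and by experiment, and these cannot be told apart.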

How the data were processed

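RNA was extracted from Huh7 cells with Trizol, and stranded mRNA libraries were sequenced in pairs. Per the paper's methods and the submitters' processing notes, the authors trimmed reads (Trimmomatic 0.38), aligned them to hg19 with HISAT2 2.1.0 and assembled known and new transcripts with StringTie 1.3.4d, and the deposited values are FPKM per gene and library, with 0 values at zero. Low genes gave no common step between libraries (the commonest ratio covered 1.16% of 1032 low genes in the siControl pair), so whole reads could not be recovered, depth and counting error are unknown, and no count model was used. Summed FPKM was 403902 to 455592 per library.

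Each treated group was compared with its control with limma 3.58.1 in R 4.3.3 (lmFit, then eBayes with trend) after adding 1 to FPKM and taking log2, over genes with a mean of at least 0.5 FPKM, with Benjamini-Hochberg adjustment over all genes tested. Fold changes are on that scale and understate changes of low genes. Calls are at an unadjusted p of 0.05, the threshold of the methods, which name no adjustment. Nothing states that replicates came from separate cultures, so p-values measure the spread between these libraries, which may be technical. Members and lists were chosen with earlier results of these data known. Named were all members, UPF1, list genes that passed an unadjusted p of 0.05 without overlap between groups (at most 20 per comparison by size), entries whose symbol joins a member's with a hyphen, and the 5 genes most like ATF4; PECAM1, ASNSP1 and GDF15 were picked with their values in view. The script was tested on simulated data.

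Transcript GC content, length, untranslated regions and positions came from GENCODE release 44 lifted to GRCh37 (15741 symbols matched), from the canonical transcript or, for DDIT4, the longest coding one. Promoter windows were RefSeq sequences (GRCh38.p14 table), placed on GRCh37 by exact match, and SLC7A11 was without one in that table. Alternatives were a pseudocount of 0.1, no minimum or a mean of at least 5 FPKM, quantile or median scaling, 1 fit of all 8 libraries, the replicate number as a block, no variance trend, a loess correction for GC and length (span 0.5), and each library left out in turn, where the lone library was assumed to vary like the other group. For depletion and overexpression the counts of settings also hold a block with crossed replicate numbers, which was not planned.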

Additional observations from a re-analysis of the deposited data

How the results depend on the processing

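Without 1 library the number of genes called after depletion ran from 1443 to 5901 (2908 with all), of members from 1 to 7 (5) and of list genes from 5 to 28 (14). For overexpression these ranges were 216 to 777 genes (189) and 0 to 1 members (0), and for the difference 1065 to 3376 genes (2041), 1 to 5 members (5) and 7 to 18 list genes (12). The extremes for depletion came without a siControl library (lowest) and without siUPF1 replicate 1 (highest), and for overexpression without MYC replicate 1 (highest). A mean of at least 5 FPKM left 1862 genes for depletion, 49 for overexpression and 1282 for the difference, and no minimum gave 409 for overexpression. After removal of the GC and length trend overexpression gave 426 genes, 4 members and 6 list genes.

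Over all tested genes same-numbered libraries deviated apart, with correlations of -0.129 for depletion and -0.569 for overexpression. These correlations carry the GC differences between libraries, so they cannot tell whether equal numbers mark a shared culture. The replicate block gave 4 members and 2586 genes for depletion, 0 members and 170 genes for overexpression, and 6 list genes for the difference. Crossed numbers, chosen after seeing the data, are counted among the settings of depletion and overexpression above. They gave 3102 genes and 6 members for depletion, CHAC1 among them, and 1227 genes, 4 members and 6 list genes for overexpression.

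Signs turned only for log2 fold changes that had not passed the unadjusted threshold before any setting was changed. The turned value of TRIB3 after depletion with the GC and length trend removed, -0.20, did pass it. After depletion TRIB3 and DDIT4 were at -0.034 and -0.036 under quantile normalization, at -0.020 and -0.025 under median centring, and at -0.20 and -0.15 after removal of the GC and length trend, where SESN2 was at -0.042. Without 1 library TRIB3 ran from -0.049 to 0.086 and DDIT4 from -0.11 to 0.13. After overexpression PSAT1 was at -0.013 and SLC3A2 at 0.0031 after removal of the trend, and without 1 library PSAT1 ran from -0.020 to 0.042, SLC3A2 from -0.096 to 0.0015, DDIT3 from -0.0074 to 0.10 and SLC7A11 from -0.33 to 0.39. The difference for SESN2 was -0.032 under quantile normalization, -0.031 under median centring, -0.26 after removal of the trend and -0.034 to 0.067 without 1 library, and that for SLC7A11 was -0.62 to 0.10 without 1 library. The causes were not tested. Depth is unknown, so the counting error of CHAC1 and SLC7A11, the 2 members with the lowest levels, is unknown too.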

Other observations

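NUPR1, GDF15 and DDIT4 differed between the 2 control groups by more than any member changed with UPF1. They are examples, and the share of all genes that differed as much between the controls was not counted. The values therefore do not set stress genes apart from other genes. NUPR1 was at 1.305 and 1.302 FPKM in siControl and 0.490 and 0.456 FPKM in MYC. GDF15, a secreted stress cytokine chosen after its values were seen, was at 35.7 and 39.5 FPKM in siControl, 34.1 and 43.1 FPKM in siUPF1, 14.8 and 18.5 FPKM in MYC, and 18.2 and 18.6 FPKM in MYC-UPF1, so that the siRNA and plasmid libraries did not overlap while each treated group overlapped its control. DDIT4 went the other way, at 5.53 and 6.72 FPKM in siControl and 10.1 and 10.5 FPKM in MYC. No test was run between the 2 controls, since transfected material and experiment cannot be told apart.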
